A study of Mus musculus with 2 samples.

Results

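The family of miR-34 and miR-449 genes was examined in hippocampus tissue from 2-month-old B6CASTF1/J males, a strain that is the hybrid of the C57BL/6J and CAST/EiJ lines. Its 6 genes, Mir34a, Mir34b, Mir34c, Mir449a, Mir449b and Mir449c, were chosen by name, as the rows of the 2 miRNA count tables whose Ensembl identifiers carry these symbols in GENCODE M21. They are 6 of 2202 miRNA genes in the tables. The labels give 1 group of 2 libraries, called replicates 1 and 2, with no treatment and no second genotype. They give the tissue type as layer of hippocampus. The libraries come from separate biosamples under 1 donor entry, so the spread between them may not cover the spread between animals. The count of reads on miRNA genes was 2322520 in replicate 1 and 3414105 in replicate 2.

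MicroRNAs are short RNAs processed from hairpins, and they repress messenger RNAs that pair with their seed, bases 2 to 8 of the mature strand. The miR-34 and miR-449 genes make mature strands that share a seed and so have many targets in common. Mir34a and the Mir34b and Mir34c cluster are known as direct transcriptional targets of the tumour suppressor p53, with targets that act in the cell cycle and in cell survival. The Mir449 cluster and the Mir34b and Mir34c cluster are known for promoting the formation of motile cilia, which in the brain are borne by the ependymal cells of the ventricle walls.

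The mature sequences are shown because the shared seed defines the family, while the rest of each strand and the other hairpin arm are what tell its genes apart in a count table. They are from RefSeq on build GRCm38.p6, written 5′ to 3′ with the seed in capitals. Of the 6 genes, 5 matched the RefSeq table, with 9 mature entries. Mir449b and miR-34c-5p are named only. The 5′ arms were as follows.
miR-34a-5p: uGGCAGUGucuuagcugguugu
miR-34b-5p: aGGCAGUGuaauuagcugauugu
miR-449a-5p: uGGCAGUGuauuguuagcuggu
miR-449c-5p: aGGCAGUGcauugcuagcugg

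All 4 of these strands had the seed GGCAGUG, and no gene outside the family had a mature entry with it, among 1738 mature sequences. After base 8 they were less alike when aligned at their first base. No shift or gap was allowed, so a run that strands share at different positions was not counted as a match. The 2 miR-449 strands matched at 11 of 13 later positions, miR-34a-5p and miR-449a-5p at 7 of 14, and miR-34b-5p and miR-449a-5p at 3 of 14. The 3′ arms had 4 seeds, of which 1 was common to the cluster mates Mir34b and Mir34c.
miR-34a-3p: aAUCAGCAaguauacugcccu
miR-34b-3p: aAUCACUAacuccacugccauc
miR-34c-3p: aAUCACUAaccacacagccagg
miR-449a-3p: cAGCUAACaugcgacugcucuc
miR-449c-3p: cAGUUGCUagcugcacuacccu

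A gene's count sums the reads of both arms of its hairpin, so the counts do not give the level of a single mature strand. The hairpin of Mir34a is printed with both mature arms in capitals to show what 1 count can come from.
Mir34a hairpin: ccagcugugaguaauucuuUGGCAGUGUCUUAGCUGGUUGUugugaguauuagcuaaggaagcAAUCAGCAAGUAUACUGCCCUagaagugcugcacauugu

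The longest run that a member's hairpin transcript shared with any other annotated miRNA gene, on either strand, was 11 to 14 nt. Mir34b and Mir34c shared 11 nt with each other. Such a run ends at the first mismatch, so it can miss strands that differ at a few bases. The 3′ strands of Mir34b and Mir34c matched at 17 of 22 positions. Their 5′ strands could not be compared for want of a miR-34c-5p entry. Whether reads of 1 gene of this pair were placed on the other was not tested. No member shared 20 nt or more with another gene. Several genes named below for comparison do, and their counts are uncertain: Mir16-1, Mir16-2, Mir30c-2, Mir181a-2, Mir92-2, Mir194-1, Mir194-2, Mir219a-2, Mirlet7a-1, Mir669o, Gm23935, Mir451a and Mir486. Reads that mapped to several places, 42.6% of replicate 1 and 46.0% of replicate 2, were in no gene's count, and their origin was not measured.

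The family lies at 3 loci of mm10. Mir34a (ENSMUSG00000065493.1) is on chr4:150068454-150068555, plus strand, and lies in no annotated protein-coding gene. Its last 17 nt overlap an exon of Gm37795, a gene of type TEC on the same strand, which begins 3′ of both mature arms. Mir34b (ENSMUSG00000065492.1, chr9:51103562-51103645) and Mir34c (ENSMUSG00000065587.1, chr9:51103034-51103110) are on the minus strand, 451 nt apart, opposite an intron of Btg4. Mir449c (ENSMUSG00000076146.1, chr13:113035983-113036091), Mir449b (ENSMUSG00000078027.1, chr13:113037419-113037498) and Mir449a (ENSMUSG00000065575.1, chr13:113037534-113037624) follow each other on the plus strand in an intron of Cdc20b, their host gene. Mir449c and Mir449b are 1327 nt apart, and Mir449b and Mir449a 35 nt.

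The family was a low-abundance part of the hippocampal miRNA pool, and the miR-34 genes made up most of it. Levels are in CPM, counts per 1000000 counts on miRNA genes, so each is a share of the placed reads. The sum of the 6 genes was 1060 CPM in replicate 1 but 518 CPM in replicate 2, or 0.106% and 0.0518% of the counts. The 3 Mir34 genes held 93.4% of the family's counts in replicate 1 (Wilson 95% interval 92.3 to 94.3) and 86.5% in replicate 2 (84.8 to 88.0). A gene was taken as detected when it reached 2 CPM in each library, which held for 4 of the 6 members and for 401 of all 2202 genes. Intervals cover counting error only, since reads without molecular identifiers are not independent molecules.

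**Figure D1:**
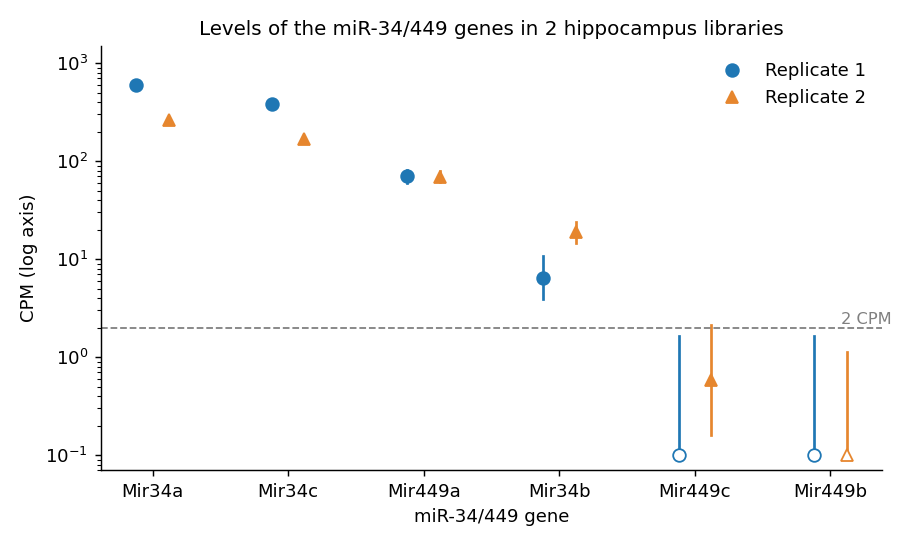
CPM on a log axis of each miR-34 and miR-449 gene in replicate 1 (blue circles) and replicate 2 (orange triangles), with Wilson 95% intervals as vertical lines, 0 counts as open symbols at 0.1 CPM and intervals cut at 0.1 CPM. Mir34a and Mir34c are the highest genes in both libraries, Mir449a sits at 70.2 and 69.4 CPM, and Mir449b has 0 counts in both.

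Mir34a, the p53 target that is made from a locus of its own, was the most abundant member. It had 1397 counts in replicate 1, or 602 CPM (Wilson 95% interval 571 to 634), and 895 counts in replicate 2, or 262 CPM (246 to 280). Its mean of 432 ± 240 CPM (SD, n = 2) ranked 136 of the 401 detected genes. Replicate 1 was the higher library, and the 2 intervals did not overlap. The genes next to it by mean level were Mir134 and Mir421 above, at 466 ± 61.0 and 433 ± 50.3 CPM (SD, n = 2), and Mir31 and Mir16-1 below, at 397 ± 463 and 387 ± 7.69 CPM. Mir34a made up 56.7% of the family's counts in replicate 1 and 50.6% in replicate 2.

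Mir34c, the leading gene of the p53- and cilia-linked cluster on chromosome 9, came next. It had 887 counts in replicate 1 and 570 in replicate 2, or 382 CPM (358 to 408) and 167 CPM (154 to 181). Its mean of 274 ± 152 CPM (SD, n = 2) ranked 149. It stood between Mir30c-2 and Mir212 above, at 292 ± 64.6 and 277 ± 26.9 CPM (SD, n = 2), and Mirlet7a-1 and Mir384 below, at 272 ± 50.1 and 268 ± 35.6 CPM. Mir34a exceeded Mir34c 1.57-fold in each library, and this ratio was larger than its spread by the rule that its mean log2, 0.65, exceed 2 SD. Such ratios carry no p, as 2 libraries allow none below 0.5 in a two-sided exact sign-flip test. An SD from 2 libraries is also poorly known, and that of Mir34a over Mir34c, 0.00323 in log2, can understate the spread.

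Mir34b, the other hairpin of that cluster, was far scarcer than its neighbour. It had 15 counts in replicate 1 and 64 in replicate 2, or 6.46 CPM (3.91 to 10.7) and 18.7 CPM (14.7 to 23.9), with a mean of 12.6 ± 8.69 CPM (SD, n = 2) and rank 297. Here replicate 2 was the higher library. Mir34b gave 1.66% of the counts of the Mir34b and Mir34c pair in replicate 1 (Wilson 95% interval 1.01 to 2.73) and 10.1% in replicate 2 (7.98 to 12.7). The pair therefore rested on Mir34c, and its summed level of 388 and 186 CPM moved with that gene. The genes next to Mir34b by level were Mir181a-2 and Gm23935 above, both at 12.6 CPM, and Gm24589 and Mir92-2 below, both at 11.8 CPM.

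In the Mir449 cluster, known for its role in multiciliated cells, Mir449a was detected and its 2 neighbours were not. Mir449a had 163 counts in replicate 1 and 237 in replicate 2, or 70.2 CPM (60.2 to 81.8) and 69.4 CPM (61.1 to 78.8). With a mean of 69.8 ± 0.541 CPM (SD, n = 2) it ranked 211, between Mir1198 and Mir669o at 72.9 ± 18.6 and 70.6 ± 11.6 CPM and Mir16-2 and Mir203 at 69.7 ± 0.748 and 65.9 ± 26.9 CPM. Its intervals in the 2 libraries overlapped almost fully.

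Mir449c had 0 counts in replicate 1 and 2 counts in replicate 2, or 0.586 CPM (0.161 to 2.14). Mir449b had 0 counts in both libraries. Not seeing a read is compatible with as many as 3 counts, or 1.29 CPM at the depth of replicate 1 and 0.879 CPM at that of replicate 2. The Wilson upper limits for 0 counts are somewhat higher, at 1.65 and 1.13 CPM. The count of Mir449a was 54.3 times the floor of 3 counts in replicate 1 and 79.0 times in replicate 2. These folds over an unseen Mir449b leave out the counting error of Mir449a, so they are not strict lower limits. For Mir449c the same 54.3-fold applies in replicate 1. In replicate 2 the ratio was 118-fold, with an exact (Clopper-Pearson) 95% counting interval of 32.4 to 984. In both clusters the hairpin farthest 3′ held most of the counts, at 98.3% and 89.9% for Mir34c and 100% and 99.2% for Mir449a in replicates 1 and 2.

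**Figure D2:**
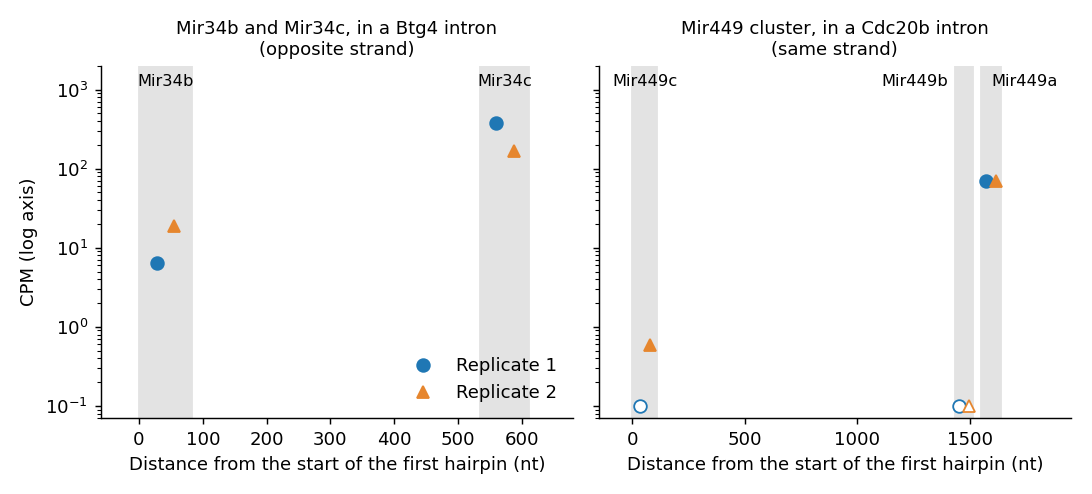
CPM on a log axis of the hairpins of the Mir34b and Mir34c cluster (left) and the Mir449 cluster (right) against distance in nt along the transcript from the start of the first hairpin, with hairpins as grey bands, replicate 1 as blue circles, replicate 2 as orange triangles and 0 counts as open symbols at 0.1 CPM. In each cluster the hairpin farthest 3′ has the highest level, Mir34c at 382 and 167 CPM and Mir449a at 70.2 and 69.4 CPM.

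The order of the levels was Mir34a, Mir34c, Mir449a and Mir34b in both libraries. The level of Mir34c was 5.44 times that of Mir449a in replicate 1 and 2.41 times in replicate 2. For Mir449a over Mir34b the ratios were 10.9 and 3.70. All 3 neighbouring pairs in this order were apart under the 2 SD rule, the last 2 narrowly, with mean log2 ratios of 1.85 and 2.64 against 2 SD of 1.66 and 2.15. Mir449c and Mir449b were both at or under the floor of 3 counts and cannot be ordered.

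By seed, the 4 genes with a listed GGCAGUG strand had a sum of 678 CPM in replicate 1 against 351 CPM in replicate 2. Since gene counts hold both arms, this is an upper limit for the strands with that seed from these genes. It is no limit for the whole family, because Mir34c, at 382 and 167 CPM, was left out for want of a miR-34c-5p entry. The seed AUCACUA, which Mir34b and Mir34c have in their 3′ arms, was at most 388 and 186 CPM.

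Between the 2 libraries, the members did not move as a family. Mir34a was 2.33-fold higher in replicate 1 (log2 ratio of replicate 2 over replicate 1 −1.22, adjusted exact binomial p = 3.81e-89), and so was Mir34c (2.33-fold, log2 −1.22, adjusted exact binomial p = 1.2e-56). Mir34b was 2.78-fold higher in replicate 2 (log2 1.48, adjusted exact binomial p = 0.000211). Mir449a had a log2 ratio of −0.04 that did not pass (adjusted exact binomial p = 0.875). This test compares 2 libraries rather than conditions, and it takes counting error as the only error. Its p-values were adjusted by the Benjamini-Hochberg method over all 401 detected genes.

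Passing that test was common. Of the 4 detected members 3 passed, beside 204 of all 401 detected genes, or 50.9%. Genes higher in replicate 2 made up 28.2% of those tested and genes lower in replicate 2 made up 22.7%. In size, the median detected gene differed 1.26-fold between the libraries, while Mir34b, Mir34a and Mir34c ranked 20, 33 and 35 of 401 by the absolute log2 ratio and Mir449a ranked 380. With edgeR's exact test and the common dispersion of the 2 libraries, a biological coefficient of variation of 29.9%, no member passed: the adjusted p was 0.766 for Mir34a, Mir34b and Mir34c and 1 for Mir449a. That test called 0.748% of the genes, or 3 of 401, and its dispersion was taken from the same 2 libraries that it compares.

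**Figure D3:**
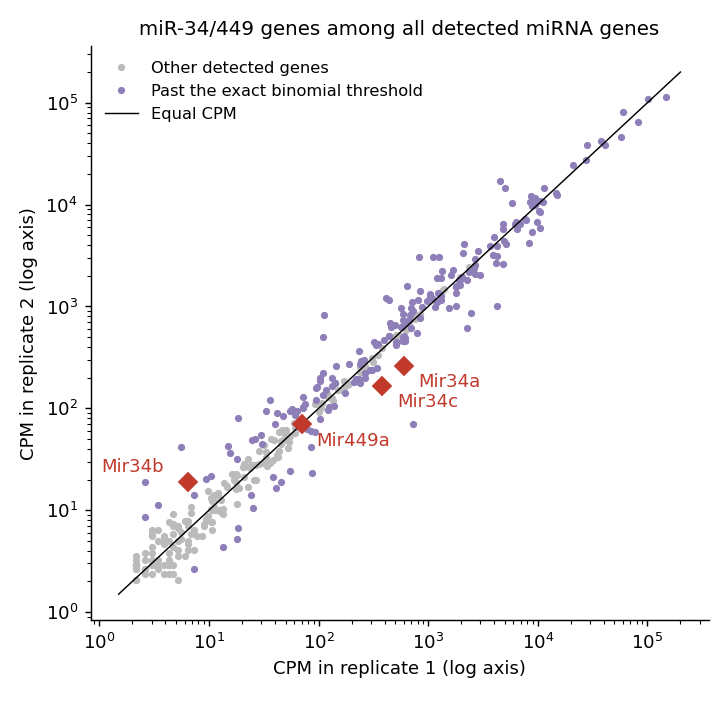
Level of each of the 401 detected genes, in CPM on log axes, with replicate 1 across and replicate 2 upward. Purple dots passed the exact binomial test and grey dots did not, the 4 detected members are red diamonds, and the black line marks equal CPM. Mir34a and Mir34c lie side by side below the line, at 602 and 382 CPM in replicate 1 against 262 and 167 CPM in replicate 2, Mir34b lies above it and Mir449a on it.

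Mir34a and Mir34c, which lie on different chromosomes, had closely matching ratios. Among the 196 other genes whose mean reached 100 CPM, Mir34c was the gene whose log2 ratio was nearest to that of Mir34a, with a gap of 0.005. The next were Mir98, a let-7 family gene (8260 CPM in the first library, 4228 CPM in the other, gap 0.232), and Mir219a-2, an oligodendrocyte gene (2447 and 865 CPM, gap 0.302). Genes with a mean under 100 CPM were left out of this comparison. By absolute log2 ratio over all 401 detected genes, Mir34a and Mir34c ranked 33 and 35 and so were not adjacent. With 2 libraries a ratio is a single number per gene, so likeness of this kind is a description only.

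Mir34b and Mir34c, in contrast, lie 451 nt apart on 1 strand and went in opposite directions. Their log2 ratios differed by 2.69, or 6.47-fold. Among 108 pairs of detected neighbours on the same strand within 10 kb, the median difference was 0.45, and the Mir34b and Mir34c pair had the second largest, after Mir1188 and Mir370 at 2.77. Opposite signs were frequent among neighbours, in 53 of the 108 pairs, and in 18 pairs both genes passed the exact binomial test in opposite directions. In the 28 pairs whose scarcer gene had a mean of 20 CPM or less, the median difference was 0.48.

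**Figure D4:**
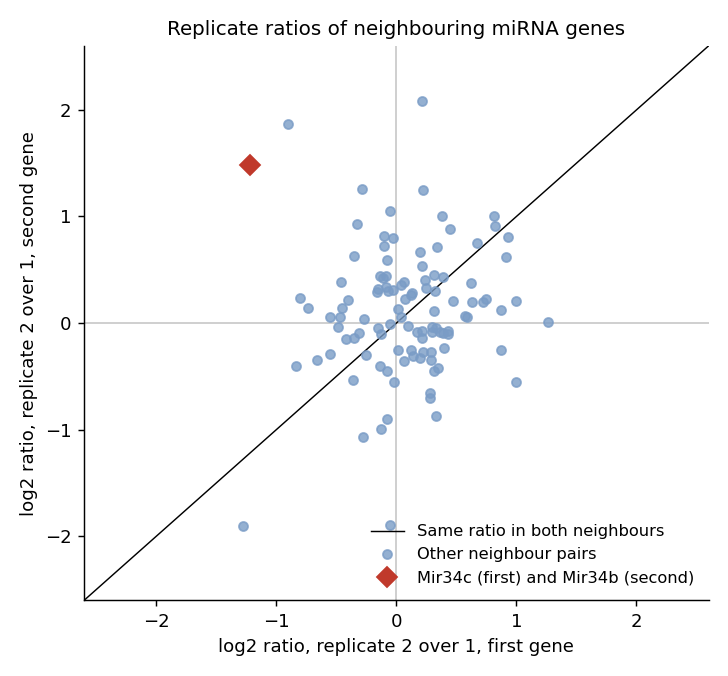
Log2 ratio of replicate 2 over replicate 1 for the 2 genes of each of 108 neighbouring pairs, first gene by position on the x axis and second on the y axis, with the diagonal marking equal ratios. The Mir34c and Mir34b pair (red diamond, −1.22 and 1.48) lies far from the diagonal, beside Mir1188 and Mir370 (−0.90 and 1.87).

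Markers of other cells were read from lists of miRNA genes, beside a neuron-enriched list, which is no test of the tissue label. The neuron-enriched genes, 13 of 15 detected, came to 34249 CPM in replicate 1 against 50021 CPM in replicate 2, although the 3 Mir124a genes, made from near-identical loci, had 6, 1 and 0 counts in replicate 1 and 11, 0 and 5 in replicate 2. By the exact binomial test 7 of these genes were higher and 3 lower in replicate 2. Over all 401 detected genes 28.2% were called higher and 22.7% lower. Much of the gap between the sums was in Mir128-1, at 4518 and 16906 CPM, which shares 20 nt or more with Mir128-2, so its count is uncertain. Mir132 and the sequence-sharing genes Mir138-1, at 4809 and 2633 CPM, and Mir138-2 were called lower. Tissue was sampled in bulk, so fewer cells of a type and less RNA per cell cannot be told apart. The sensory and thalamic list differed in the direction of Mir34a and Mir34c, with 133 CPM in replicate 1 against 42.8 CPM in replicate 2. Both of its detected genes, of 3 listed, were called lower in replicate 2, beside 22.7% of all 401 detected genes. Mir183 had 86.5 and 23.4 CPM, and Mir182 had 45.6 and 19.0 CPM. Mir96, the third, had 2 and 1 counts. The erythrocyte list, with all 3 genes detected, was at 1922 and 1149 CPM, from Mir451a at 1807 and 1007 CPM, while Mir144 was at 94.7 and 121 CPM and Mir486 at 20.7 and 21.4 CPM. The part of these cells in the replicate difference of Mir34a and Mir34c was not tested.

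For the cilia-linked genes no list of ependymal markers was made, and the nearest markers were those of the choroid plexus and other epithelium. This list, without the miR-34 and miR-449 genes, had 6 of 7 members detected and came to 779 CPM in replicate 1 against 971 CPM in replicate 2. The sum rested mainly on Mir204, the most abundant gene of the list, at 590 and 738 CPM. Mir204 is also linked to astrocytes, so the sum is not a measure of epithelium alone. Mir211, a relative of Mir204, had 7 and 3 counts. By the exact binomial test 3 of the 6 detected genes were higher and 1 was lower in replicate 2, while Mir200a (16.8 and 19.9 CPM) and Mir141 (3.44 and 2.93 CPM) did not pass. Over all 401 detected genes 28.2% were called higher and 22.7% lower. Mir200b was the farthest apart, at 18.5 and 80.5 CPM, and Mir200c went the other way, at 85.3 and 41.3 CPM. Mir449a, at 70.2 and 69.4 CPM, followed neither of these, and the part of epithelial cells in its level was not tested. In the remaining lists, mural and endothelial genes were at 21344 and 19409 CPM, with all 3 detected. Mir126a, which shares 20 nt or more with Mir126b, was lower in replicate 2 at 14889 and 12474 CPM, and Mir143 and Mir145a were higher by the exact binomial test. Microglia and leukocyte genes were at 676 and 1100 CPM, with 3 of 4 detected.

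Other miRNA genes reported as p53 targets, or as processed with the help of p53, differed among themselves as well. Of 12 such genes 11 were in the tables and 9 were detected, of which 2 were higher and 4 lower in replicate 2 by the exact binomial test, where 28.2% of all 401 detected genes were called higher and 22.7% lower. Their median log2 ratio was −0.25, beside 0.03 over all 401 genes. Mir107, a gene of the miR-103/107 family, had the widest difference, with 4269 CPM in replicate 1 against 1021 CPM in replicate 2, but it shares 20 nt or more with the Mir103 genes, so its count is uncertain. Mir200c, an epithelial gene, was also lower in replicate 2, at log2 −1.07, as were Mir194-2 at −0.80 and Mir15a at −0.25. Mir145a, a smooth muscle gene, was higher in replicate 2, at 131 and 199 CPM, and so was its cluster mate Mir143, at 6325 and 6736 CPM. Mir16-1, Mir192 and Mir141 did not pass, with log2 ratios of 0.01, 0.24 and −0.28. Mir194-1, which shares 20 nt or more with Mir194-2 and whose reads may not have been placed, had 0 counts in both libraries, and Mir215 had 0 and 1 counts.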

How the data were processed

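MicroRNA-seq was made from hippocampus RNA in 2 libraries of 1 group, with fragments under 30 nt per the labels. The deposited values are counts of reads per miRNA gene, raw whole numbers; per the labels the assembly is mm10, and the deposited notes name GENCODE M21. The aligner and counter are not given in the sources used here. The same-strand column was used, at 2322520 and 3414105 counts. The 4 rows that name no gene held 63.9% and 65.9% of the reads and stayed out of totals and tests.

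Counts were scaled to CPM. Libraries were compared by a two-sided exact binomial test (SciPy 1.17.1) on TMM effective sizes from edgeR 4.0.16 in R 4.3.3, with Benjamini-Hochberg adjustment at 0.05 over the 401 genes at 2 CPM or more in both. Log2 ratios used 0.5 added to counts. Without a second group no edgeR quasi-likelihood test applied. Alternatives were other denominators, DESeq2 1.42.0 size factors, filters, the both-strand column and edgeR's exact test. Named genes were the members, the 2 genes above and below each by level, the 3 nearest Mir34a by ratio, and fixed lists. The cell type lists, the list of reported p53 genes and the members were chosen with earlier results of these data known.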

Additional observations from a re-analysis of the deposited data

Results flagged for a closer look

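Mir34b had 4 counts on the opposite strand in replicate 2 and 0 in replicate 1. This stood out because the opposite-strand column was used in no comparison and 4 exceeds the limit of 3 counts set for an unseen gene. The other 5 members had 0 counts on the opposite strand in both libraries. Over all miRNA genes, 32 genes in replicate 1 and 35 in replicate 2 had more than 3 counts there.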

How the results depend on the processing

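The CPM sums depend on the denominator. Per 1000000 reads of the whole library, the means of the family, the Mir34b and Mir34c pair and the Mir449 cluster were 279, 102 and 24.6, and without the 5 most abundant genes in the total they were 1404, 511 and 123. With the both-strand column the family, the pair and the Mir449 cluster were at 852, 310 and 75.7 CPM. The total of that column was smaller, at 2152080 and 3160876 counts in replicates 1 and 2, while the counts of the Mir449 genes were the same. Leaving out 1 replicate gave a range of 518 to 1060 CPM for the family, 186 to 388 CPM for the pair, 70.0 to 70.2 CPM for the Mir449 cluster and 89.9% to 98.3% for the share of Mir34c in its pair. Under edgeR's exact test the log2 ratios of Mir34a, Mir34b and Mir34c were −1.22, 1.51 and −1.22 and none passed, and 2 genes were called higher and 1 lower in replicate 2, in place of 113 and 91, since this test adds a variance between libraries. The other normalizations, filters and the both-strand column kept every member's side of the threshold. The replicate difference and the 2 SD rule for the order of levels cannot be computed from 1 library. No paired analysis was possible because there is 1 group. Depth limits Mir449b and Mir449c, which had 0 to 2 counts.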
